A study of Mus musculus with 6 samples.

Results

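The genes that make cyclic AMP, sense it and pass it on to CREB were followed in cultured dermal cells of neonatal C57BL/6 mice. The 47 genes taken are adenylyl cyclases, subunits and inhibitors of protein kinase A (PKA), A-kinase anchoring proteins, the EPAC exchange factors, CREB family factors, their coactivators, the salt-inducible kinases, and Gnas, Rgs2 and Dusp1. They were chosen by name, as the probe sets whose platform annotation gives exactly 1 symbol, with the brightest probe set over all arrays where a gene had several. The choice was made with earlier results of these data known. Of the 47, 43 were measured, among 19938 genes tested. Gnas, Prkaca and Akap2 each had 1 probe set, with several symbols, and Rapgef4 had none listed, so these 4 were not analysed here.

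Total RNA was hybridised to 6 one-colour Affymetrix arrays. The group labelled DMSO, after the solvent, has 3 arrays of cells without the compounds, and the group labelled FR has 3 arrays of cells given forskolin and RepSox together, each at 20 µM. Culture lasted 2 days. Both groups share strain, tissue of origin and age class, no array had either compound alone, and the labels leave out whether the samples within a group are separate cultures or separate animals. The p-values therefore cover the spread seen between the samples, and that spread may be technical.

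Forskolin binds adenylyl cyclase, the membrane enzyme that turns ATP into cyclic AMP, and switches it on without a hormone receptor. Cyclic AMP frees the catalytic subunits of PKA from the regulatory subunits. PKA then phosphorylates CREB and, by inhibiting the salt-inducible kinases, lets the CRTC coactivators enter the nucleus. EPAC proteins are a separate branch that activates the small GTPase Rap. RepSox blocks the kinase of the type I TGF-β receptor. In skin fibroblasts, cyclic AMP is known to oppose the myofibroblast state that TGF-β promotes.

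All levels are log2 RMA values. A change is the mean of the 3 FR arrays minus the mean of the 3 DMSO arrays, with its standard error (SE). Changes were tested with limma over all genes, and a gene passed at a Benjamini-Hochberg adjusted p under 0.05. The machinery moved in both directions. Adcy5, Crem and Sik2 had the largest rises, and Akap12, Akap13, Adcy7 and Rgs2 the largest falls. Of the 43 genes, 10 rose and 12 fell, 51.2% in all, against 27.9% of all genes tested (13.4% higher and 14.5% lower). With arrays centred on their medians the split was 8 higher and 13 lower here, and 1880 higher and 3447 lower in place of 2671 and 2888 over all genes. Without DMSO replicate 1 the count of rises was 5 and that of falls 10, and the count over all genes went from 5559 to 4190.

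The median change of the 43 genes was -0.01, against 0.05 over all genes, and their median absolute change was 0.26 against 0.18. Past the threshold, 2 genes rose and 2 fell by 2-fold or more, against 3.13% of all genes for both directions together. The arrays of the groups did not overlap for 27 of the 43, against 43.9% of all genes. The share of all genes that passed depended on level. Under a mean level of 5 it was 11.3%, and 1 of 2 genes of the machinery passed there. It was 21.1% between 5 and 6 (2 of 5 passed), 30.7% between 6 and 7 (3 of 7) and 41.2% between 7 and 8 (6 of 11). It was 40.5% between 8 and 9 (7 of 12), 44.1% between 9 and 10 (3 of 5) and 38.8% over 10 (0 of 1).

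**Figure D1:**
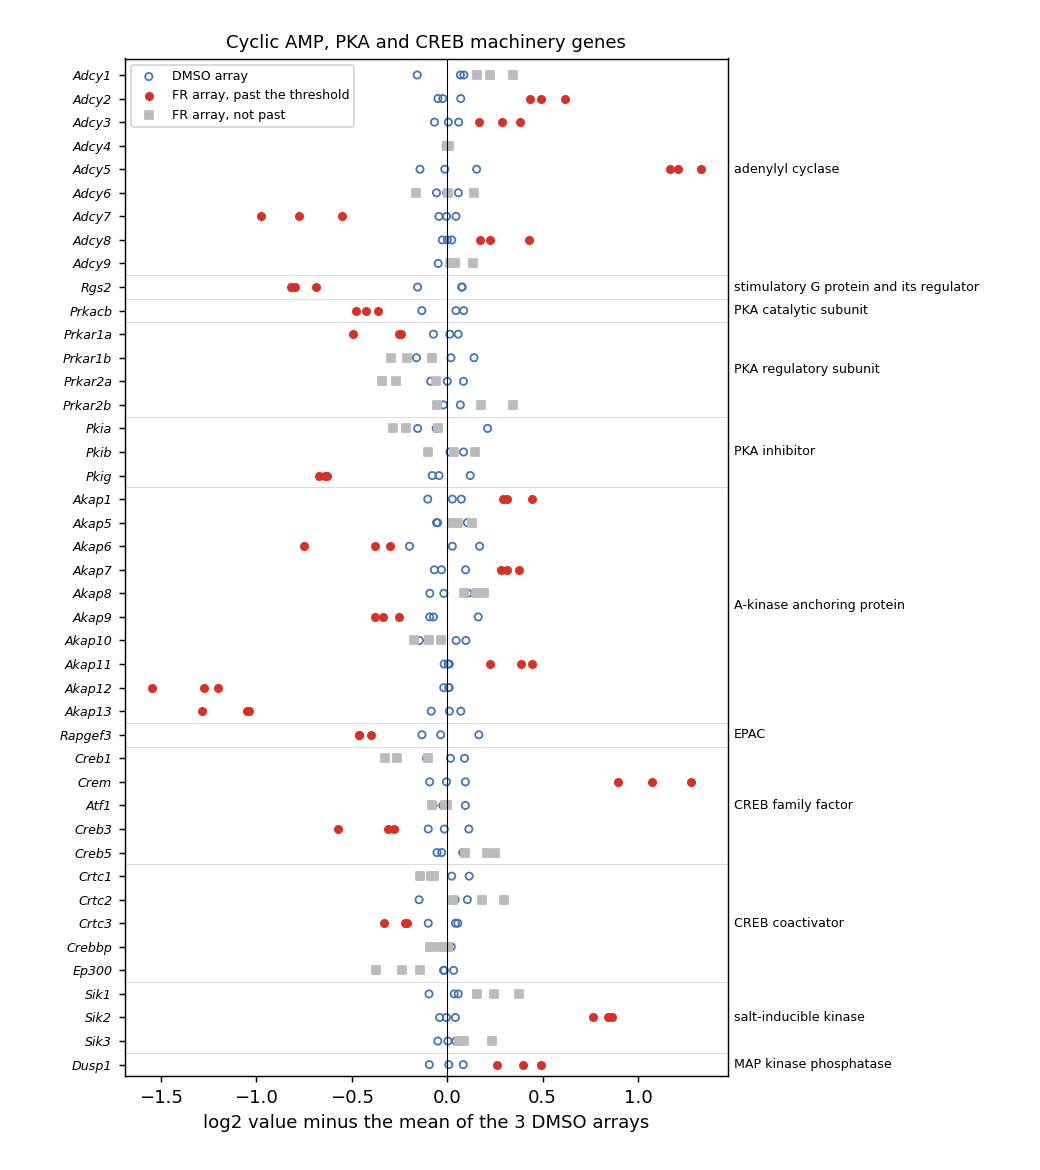
Each row is a gene, grouped by role, and each point is 1 array, plotted as its log2 value minus the mean of the 3 DMSO arrays. Open blue circles are DMSO arrays, red circles are FR arrays of the 22 genes that passed, and grey squares are FR arrays of the 21 that did not. Adcy5, Crem and Sik2 lie farthest to the right, and Akap12 and Akap13 farthest to the left.

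CREB binds the palindrome TGACGTCA, the cyclic AMP response element, and less tightly shorter forms of it such as TGACGT. Both were searched on both strands (TGACGT reads ACGTCA on the other strand) in the 250 bases before the annotated starts in RefSeq (GRCm38.p6). The shorter motif is contained in the longer one, so every window with the palindrome also counts for the shorter motif. At least 1 window was present for 39 of the 47 genes, 66 windows in all. No window was available for Adcy6, Adcy8, Pkia, Akap2, Akap12, Crem, Crtc2 and Sik1, so these genes were not searched for either motif. The palindrome was found in 3 of the 66 windows and in 1.55% of the 32851 windows of all genes. The shorter motif was found in 8 of the 66 and in 6.47% of all windows. A match is a description of the letters and not a binding site.

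The windows of 6 genes are shown from 5′ to 3′ on the strand of the gene, with the matches in capitals. Dusp1, Prkar1a and Creb5 hold the palindrome. Akap11, Rgs2 and Rapgef3 hold the shorter motif and passed the test.
Dusp1, chr17:26508578-26508693, minus strand: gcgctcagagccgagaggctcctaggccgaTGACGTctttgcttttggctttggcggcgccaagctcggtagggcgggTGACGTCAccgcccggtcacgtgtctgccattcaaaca
Prkar1a, chr11:109650870-109650937, plus strand: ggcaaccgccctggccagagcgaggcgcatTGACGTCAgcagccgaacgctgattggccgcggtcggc
Creb5, chr6:53287228-53287295, plus strand: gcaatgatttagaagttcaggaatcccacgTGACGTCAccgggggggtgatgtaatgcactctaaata
Akap11, chr14:78537047-78537110, minus strand: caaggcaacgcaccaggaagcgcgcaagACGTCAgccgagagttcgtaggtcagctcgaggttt
Rgs2, chr1:144004300-144004365, minus strand: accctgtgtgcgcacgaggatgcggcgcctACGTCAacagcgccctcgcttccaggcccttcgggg
Rapgef3, chr15:97767822-97767887, minus strand: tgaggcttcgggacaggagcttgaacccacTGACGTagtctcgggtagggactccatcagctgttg

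In Dusp1 the palindrome begins 143 bases before the start, and a further TGACGT begins 191 bases before it. The palindrome begins 49 bases before 1 of the 6 annotated starts of Prkar1a, and 45 bases before 1 of the 2 of Creb5. In Akap11 the shorter motif begins 222 bases before 1 of the 2 annotated starts. Genes with such letters went both ways: Dusp1 and Akap11 were higher with FR, Prkar1a, Rgs2 and Rapgef3 were lower, and Creb5, Adcy9 and Sik3 did not pass. In Adcy9 and Sik3, not shown, the shorter motif begins 24 and 57 bases before the start. Among genes with a window, the shorter motif was held by 2 of 8 that rose, 3 of 11 that fell and 3 of 17 that did not pass. Over all 27025 genes with a window the share was 7.29%, and the difference was not tested. The 39 genes had 66 windows and all 27025 genes had 32851, so the number of windows per gene differed between the sets.

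Markers were listed for the cells that neonatal skin can yield, with earlier results of these data known. Of the 54 measured, 66.7% passed, against 27.9% of all genes tested, and the lists differed. The 8 dermal fibroblast markers averaged 10.949 to 11.015 in DMSO and 10.882 to 10.912 in FR, so the labelled tissue had its markers. Of these, 3 rose and 4 fell, with log2 changes from -1.57 to 2.17 over the list. Keratinocyte markers passed as higher in 11 of 14 cases, with a list mean of 6.12 to 6.18 in DMSO and 7.15 to 7.27 in FR. Adipocyte markers passed as higher in 7 of 8 cases (6.95 to 6.99 and 8.63 to 8.76), and skeletal muscle markers in 7 of 8 (6.09 to 6.26 and 7.19 to 7.33). Krt14, a keratin gene of basal keratinocytes, rose by 1.58 on the log2 scale. Of 5 endothelial markers 1 passed, of 4 melanocyte markers 2 and of 2 measured Schwann cell markers 1, each as higher. Of 5 immune markers 0 passed in limma, with 0 at an unadjusted p under 0.05. Olfactory receptor genes, taken as a background, had a 95th percentile of 5.65 in DMSO and a median change of 0.14. Both means of Pecam1 and Ptprc lay under that level. So did those of Emcn, the endothelial marker that passed, named after its values were seen. In bulk RNA a change in the share of a cell type and a change in RNA per cell cannot be told apart. The part of these marker shifts in the changes of the signalling genes was not tested.

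The cyclases, which make cyclic AMP, rose in 4 of 9 cases and fell in 1 (55.6% passed, against 27.9% of all genes tested). Adcy5, a cyclase inhibited by calcium and by Gi proteins, read 5.85, 5.72 and 6.02 in the DMSO arrays and 7.19, 7.07 and 7.03 in the FR arrays. The groups were more than 1 log2 unit apart at their nearest arrays. The rise was 2.35-fold (log2 change 1.23, SE 0.10, adjusted p = 5.4e-06), and 1.85% of all genes had a larger change. Adcy2, which responds to G protein βγ subunits, read 7.55, 7.43 and 7.45 in DMSO and 8.09, 7.97 and 7.91 in FR. All FR arrays lay above all DMSO arrays, and Adcy2 rose 1.43-fold (log2 change 0.51, SE 0.09, adjusted p = 0.00123).

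Adcy7 went the other way. It is, like Adcy2, a cyclase of the βγ-responsive class. Its values were 7.28, 7.32 and 7.37 in DMSO and 6.35, 6.77 and 6.55 in FR. The FR arrays were lower and more spread (SD 0.211 against 0.0448), and the fall was 1.70-fold (log2 change -0.77, SE 0.11, adjusted p = 0.000358).

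Adcy3, known best for its role in olfactory neurons and primary cilia, read 6.98, 7.03 and 6.90 in DMSO and 7.26, 7.35 and 7.14 in FR. The groups did not overlap, and the rise was small (log2 change 0.28, SE 0.09, adjusted p = 0.0376). It missed the threshold without DMSO replicate 1 (adjusted p = 0.0945), 2 (0.0651) or 3 (0.13), without FR replicate 1 (0.0647) or 2 (0.105), and with median centring (0.107). Adcy8, a calcium-stimulated cyclase of neurons, read 4.13, 4.18 and 4.16 in DMSO and 4.38, 4.58 and 4.33 in FR. Both means lay in the background range, and the rise of 0.27 (SE 0.09, adjusted p = 0.045) stands beside the median of 0.14 for the olfactory receptor genes. That call was lost without DMSO replicate 1 (0.124), 2 (0.0963) or 3 (0.109) and without FR replicate 1 (0.0528) or 2 (0.125), and in 5 further alternatives (up to 0.166).

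The other cyclases did not pass. Adcy1, a calcium-stimulated neuronal form, changed by 0.24 (adjusted p = 0.0874), with a DMSO mean of 5.46, in the background range. The calcium-inhibited Adcy6 had 95% limits of -0.22 to 0.21 for its log2 change, Adcy4 of -0.17 to 0.17, and Adcy9, which responds weakly to forskolin, of -0.11 to 0.25. Adcy4 read 7.57, 7.57 and 7.58 in both groups.

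**Figure D2:**
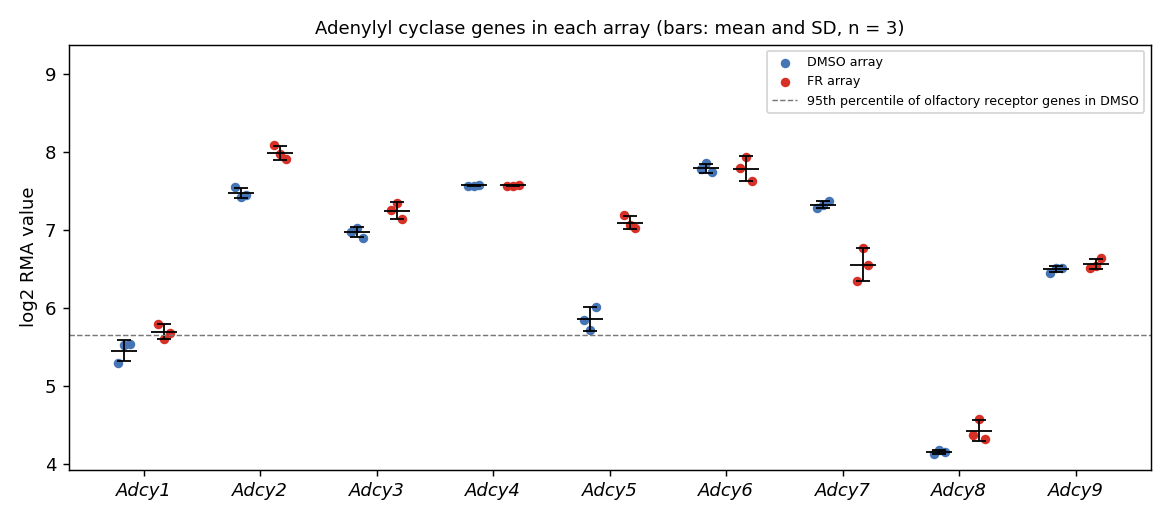
The log2 RMA value of each adenylyl cyclase gene is plotted for the 3 DMSO arrays (blue) and the 3 FR arrays (red), with the mean and SD as bars and the background level of 5.65 as a dashed line. The FR arrays of Adcy5 lie between 7.03 and 7.19, above its DMSO arrays at 5.72 to 6.02, while those of Adcy7 lie below its DMSO arrays.

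Rgs2, a regulator of G protein signalling that speeds the switching off of Gq and also binds some cyclases, read 9.78, 9.55 and 9.78 in DMSO and 8.90, 8.89 and 9.02 in FR. All FR arrays were lower, and Rgs2 fell 1.70-fold (log2 change -0.77, SE 0.09, adjusted p = 0.00013). Rgs2 is also known as a gene that cyclic AMP can induce.

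PKA at rest is a complex of catalytic and regulatory subunits. Prkacb, the measured catalytic subunit gene, read 8.51, 8.55 and 8.33 in DMSO and 8.10, 8.04 and 7.99 in FR. The groups did not overlap, and Prkacb fell 1.34-fold (log2 change -0.42, SE 0.09, adjusted p = 0.00515). The type I regulatory gene Prkar1a read 9.27, 9.40 and 9.35 in DMSO and 9.10, 9.09 and 8.84 in FR. It fell by 0.33 (SE 0.09, adjusted p = 0.0255), and missed the threshold without DMSO replicate 2 (0.0901) or 3 (0.0749), without FR replicate 3 (0.0734), and with cyclic loess (0.0593).

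The other 3 regulatory subunit genes did not pass, with log2 changes from -0.22 (Prkar2a, adjusted p = 0.114) to 0.16 (Prkar2b, adjusted p = 0.3). The value of Prkar1b was -0.20 (95% limits -0.42 to 0.03). Of 3 genes for the small PKA inhibitors, which block the catalytic subunit and carry it out of the nucleus, Pkig passed. That share of 33.3% stands beside 27.9% of all genes tested. Pkig read 6.65, 6.81 and 6.61 in DMSO and 6.05, 6.06 and 6.02 in FR, so the FR arrays were both lower and tightly grouped. The fall was 1.57-fold (log2 change -0.65, SE 0.09, adjusted p = 0.000232). Pkia changed by -0.18 (adjusted p = 0.245), and Pkib, in the background range, by 0.03 (adjusted p = 0.854).

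The anchoring proteins, which tether PKA to particular places in the cell, split: 3 of 10 rose and 4 fell. In all 70% passed, against 27.9% of all genes tested. Akap12 (gravin), a scaffold at the plasma membrane, read 9.52, 9.54 and 9.55 in DMSO and 8.26, 8.33 and 7.99 in FR. The groups were more than 1 log2 unit apart, and Akap12 fell 2.54-fold (log2 change -1.34, SE 0.10, adjusted p = 3.48e-06). It had the largest absolute change of the 43 genes, and 1.49% of all genes had a larger one. Akap13, a large scaffold of the same family, read 8.66, 8.60 and 8.51 in DMSO and 7.54, 7.31 and 7.55 in FR. It fell 2.18-fold with no overlap (log2 change -1.12, SE 0.10, adjusted p = 9.04e-06).

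The other falls among anchoring genes were smaller. Akap9, a Golgi and centrosome scaffold, read 8.86, 8.60 and 8.62 in DMSO and 8.44, 8.36 and 8.32 in FR, and fell by 0.32 (SE 0.09, adjusted p = 0.027). Its call was lost without DMSO replicate 1 (0.12), without FR replicate 2 (0.0625) or 3 (0.0773), with quantile normalization (0.0587) and with cyclic loess (0.0819). Akap6, a scaffold of the nuclear envelope in muscle, read 5.39, 5.61 and 5.76 in DMSO and 5.29, 4.84 and 5.21 in FR. Both means lay in the background range (log2 change -0.48, SE 0.13, adjusted p = 0.0211), and the call was lost without DMSO replicate 2 (0.0568) or 3 (0.0818) or FR replicate 2 (0.0669).

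The 3 anchoring genes that rose did so by 0.32 to 0.35. Akap11, a scaffold that also binds glycogen synthase kinase, read 9.09, 9.07 and 9.10 in DMSO and 9.53, 9.47 and 9.31 in FR (log2 change 0.35, SE 0.09, adjusted p = 0.0117). Its 3 probe sets gave 0.35, 0.48 and 0.20, of which the last did not pass when each probe set was tested (adjusted p = 0.11). Akap1, which anchors PKA at mitochondria, read 6.73, 6.86 and 6.91 in DMSO and 7.15, 7.28 and 7.13 in FR. It rose by 0.35 (SE 0.09, adjusted p = 0.0131), and missed the threshold without DMSO replicate 1 (0.0653). Akap7, a short membrane-bound anchor, read 6.82, 6.95 and 6.79 in DMSO and 7.17, 7.14 and 7.23 in FR. It rose by 0.32 (SE 0.08, adjusted p = 0.0153), and missed the threshold without DMSO replicate 1 (0.0602) or 3 (0.0677). For these 3 genes the groups did not overlap, which held for 43.9% of all genes tested. Akap5, Akap8 and Akap10 did not pass, with changes of 0.07, 0.14 and -0.10.

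On the EPAC branch, Rapgef3, the gene of the broadly expressed EPAC, read 5.86, 6.06 and 5.76 in DMSO and 5.43, 5.50 and 5.44 in FR. Rapgef3 fell by 0.44 (SE 0.09, adjusted p = 0.00555), and the groups did not overlap. The FR mean lay in the background range, so the size of this fall is an uncertain estimate and not a limit.

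Among the factors that bind cyclic AMP response elements, 1 of 5 rose and 1 fell (40% passed, against 27.9% of all genes tested). Crem encodes both activators and, from an internal promoter, short repressors that act as feedback, and the probe set does not say which. It read 6.66, 6.48 and 6.56 in DMSO and 7.85, 7.46 and 7.64 in FR. All FR arrays lay above all DMSO arrays, and Crem rose 2.12-fold (log2 change 1.08, SE 0.11, adjusted p = 3.03e-05). Creb3, which encodes a factor held in the endoplasmic reticulum membrane and not a direct PKA target, read 8.69, 8.61 and 8.82 in DMSO and 8.40, 8.43 and 8.13 in FR. It fell by 0.39 (SE 0.10, adjusted p = 0.0174), and missed the threshold without DMSO replicate 3 (0.0735) or FR replicate 3 (0.0556).

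The genes of the directly PKA-regulated factors Creb1 and Atf1 did not pass. Creb1 read 8.71, 8.78 and 8.59 in DMSO and 8.59, 8.43 and 8.37 in FR, with overlapping groups and a change of -0.23 (95% limits -0.44 to -0.02, adjusted p = 0.0949). Atf1 changed by -0.03 (95% limits -0.22 to 0.15). Creb5 changed by 0.18 (adjusted p = 0.135).

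Of the 5 coactivator genes, 1 passed (20%, against 27.9% of all genes tested). Crtc3, a CREB-regulated coactivator, read 8.32, 8.31 and 8.17 in DMSO and 8.06, 8.05 and 7.94 in FR. It fell by 0.25 (SE 0.09, adjusted p = 0.0483), close to the threshold, and the call was lost without any 1 of the 6 arrays (adjusted p from 0.0555 to 0.156), with quantile normalization (0.117), cyclic loess (0.136) and the replicate block (0.0597). Crtc1 and Crtc2 changed by -0.10 and 0.17 and did not pass. Of the acetyltransferase genes that CREB recruits, Crebbp had 95% limits of -0.22 to 0.13. Ep300 read 8.97, 8.97 and 9.02 in DMSO and 8.75, 8.61 and 8.84 in FR. Its arrays did not overlap, which held for 43.9% of all genes tested. Its change of -0.25 missed the threshold (adjusted p = 0.0546).

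The salt-inducible kinases phosphorylate the CRTC coactivators and so keep them in the cytoplasm. Sik2 read 7.63, 7.55 and 7.58 in DMSO and 8.43, 8.35 and 8.45 in FR. Both groups were tight, and Sik2 rose 1.77-fold (log2 change 0.83, SE 0.08, adjusted p = 2.55e-05). Sik1, known as a CREB target gene, read 7.07, 6.92 and 7.05 in DMSO and 7.17, 7.26 and 7.39 in FR. Its FR arrays lay above its DMSO arrays, and its change of 0.26 missed the threshold (adjusted p = 0.0567). Sik3 changed by 0.13 (adjusted p = 0.282), also with no overlap. The groups did not overlap for 43.9% of all genes tested.

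Dusp1, the gene of a phosphatase that switches off MAP kinases and is itself known as a CREB target, read 8.12, 8.30 and 8.22 in DMSO and 8.47, 8.70 and 8.61 in FR. The groups did not overlap, and Dusp1 rose 1.30-fold (log2 change 0.38, SE 0.09, adjusted p = 0.0106). It missed the threshold without DMSO replicate 1 (adjusted p = 0.0507).

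**Figure D3:**
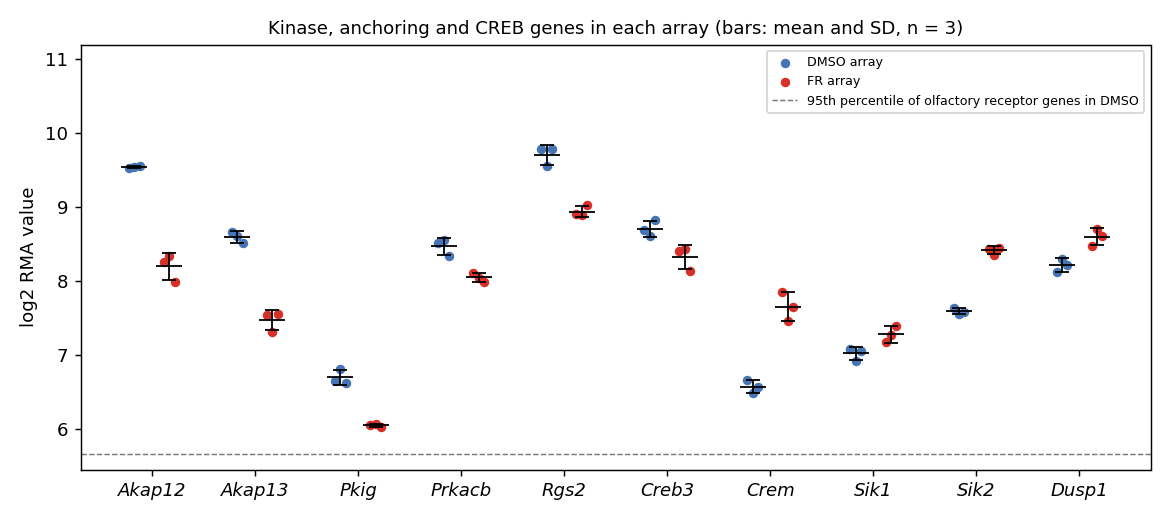
The log2 RMA value of 10 genes of the kinase, anchoring and CREB steps is plotted for the 3 DMSO arrays (blue) and the 3 FR arrays (red), with mean and SD as bars. Akap12, Akap13, Pkig, Prkacb, Rgs2 and Creb3 lie lower in FR, and Crem, Sik2 and Dusp1 higher, while Sik1 lies higher but did not pass.

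**Figure D4:**
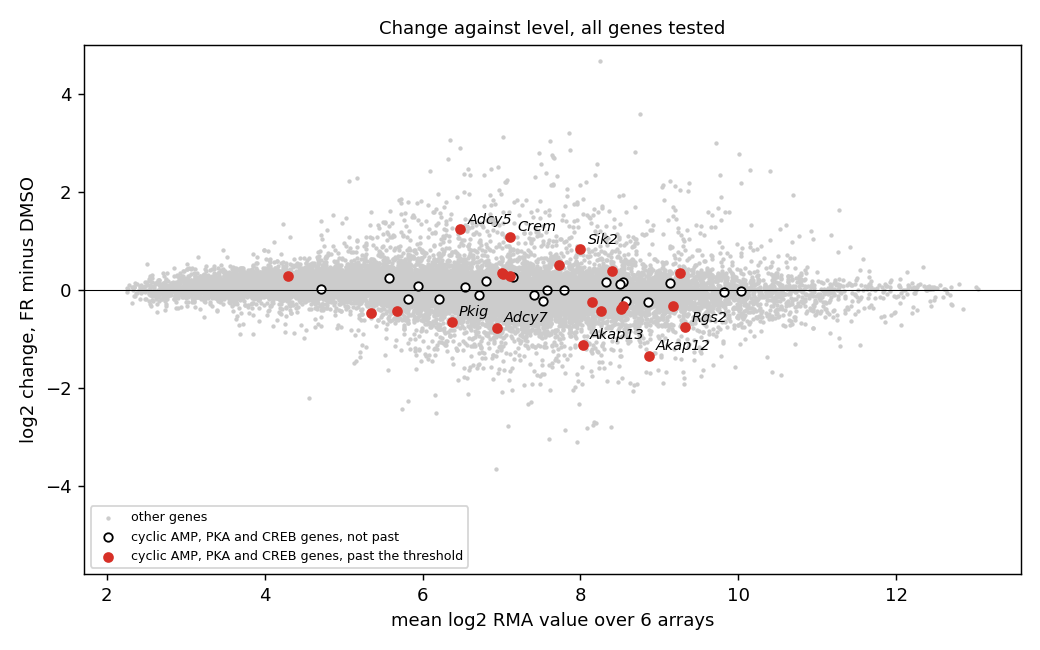
The log2 change (FR minus DMSO) is plotted against the mean log2 RMA value over 6 arrays for all 19938 genes in grey, with the 22 genes of this machinery that passed in red and the 21 that did not as open circles. Those with a change of over 0.6 in size are named, from Adcy5 at 1.23 to Akap12 at -1.34.

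Other genes of the pathway, in 7 further lists, were counted in the same fit. The lists were drawn up with earlier results of these data known. Of 91 listed, 83 were measured, and 18 rose and 20 fell, 45.8% in all against the 27.9% of all genes, with a median change of 0.05. The rest were not analysed here. Of 26 Gs-coupled receptors, the proteins that normally switch the cyclases on, 7 rose and 3 fell, and 9 had both means in the background range. Among the rises, Gpr12 and Tshr had both means in that range, and Ptger2 and Sctr had the DMSO mean there. These genes were named after their values were seen. Calcrl, the receptor gene for CGRP and adrenomedullin, fell 2.45-fold, from 7.36 ± 0.07 to 6.06 ± 0.16 (mean ± SD, n = 3; adjusted p = 4.14e-06). Vipr2, a receptor gene for VIP and PACAP, rose from 6.28 ± 0.16 to 7.51 ± 0.07 (2.34-fold, adjusted p = 5.84e-06). Ptger4, a receptor gene for prostaglandin E2, was 2.00-fold lower, at 7.12 ± 0.16 in DMSO and 6.12 ± 0.19 in FR (adjusted p = 8.91e-05).

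Of 16 further G protein subunit genes, 2 rose and 7 fell (56.2% passed, against 27.9% of all genes tested). Gng11, a γ subunit gene, fell 3.95-fold, from 8.92 ± 0.11 to 6.93 ± 0.20 (adjusted p = 4.61e-07), a larger change than that of any of the 43 genes. The rises were those of Gnao1 (1.86-fold, adjusted p = 2.15e-05) and Gnai1 (1.79-fold, adjusted p = 5.16e-05), both α subunits of the inhibitory class. The inhibitory subunit genes Gnai2 and Gnai3 fell (log2 changes -0.78 and -0.31), named after their values were seen.

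Of 9 further CREB and ATF factors, 3 fell (33.3% passed, against 27.9% of all genes tested). Creb3l1, which encodes a membrane-bound factor of the Creb3 type known for its part in collagen secretion, fell 3.01-fold, from 9.09 ± 0.03 to 7.50 ± 0.02 (adjusted p = 1.92e-07). Creb3l2, of the same type, fell by 0.34 (adjusted p = 0.0255), and Crebrf by 0.27 (0.0439). Creb3l2 missed the threshold in 7 of the 13 alternatives, among them without DMSO replicate 2 (0.103) or 3 (0.0836) and without FR replicate 2 (0.0807) or 3 (0.0525). Crebrf missed it in 8, among them without each DMSO replicate (0.142, 0.0849 and 0.0969) and without FR replicate 2 (0.115) or 3 (0.112). The arrays of Creb3l1 were 9.05, 9.11 and 9.10 in DMSO and 7.52, 7.50 and 7.48 in FR. The 2 probe sets of Atf7, named after its values were seen, disagreed. The brighter one, used here, changed by 0.09 and the other by -0.26. When each probe set was tested, only the latter passed (adjusted p = 0.473 and 0.0405).

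Of 11 other cyclic nucleotide effectors, 4 rose and 2 fell (54.5% passed, against 27.9% of all genes tested). Among the rises, Popdc2, named after its values were seen, had both means in the background range. Bves and Popdc3, which encode cyclic AMP-binding Popeye domain proteins of striated muscle, rose 2.21-fold and 1.95-fold (adjusted p = 1.35e-05 and 1.32e-05). Their DMSO means of 4.93 and 4.80 lay in the background range, so these fold values are uncertain estimates and not limits. The skeletal muscle markers were higher in the same arrays, and their part in these rises was not tested. Rap1b, a GTPase that EPAC activates, fell by 0.46 (adjusted p = 0.0028). The 2 probe sets of the Rap exchange factor gene Rapgef1, named after its values were seen, disagreed, with changes of -0.31 and 0.25 that both passed when each probe set was tested (adjusted p = 0.0221 and 0.0421).

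Of 10 further anchoring protein genes, 3 rose and 2 fell (50% passed, against 27.9% of all genes tested). Among the rises, Akap4, named after its values were seen, had both means in the background range. Lrba fell by 0.75 and Arfgef2 by 0.61, the latter with falls on all 5 of its probe sets, while Ezr, which links membranes to actin, rose by 0.65. Of 4 genes in the list of other cyclases and PKA-like kinases, 3 fell. Prkx, a kinase gene related to the PKA catalytic subunits, fell by 0.44 (adjusted p = 0.00214), and the cyclase-associated actin regulators Cap1 and Cap2 fell by 0.84 and 0.38. Of 7 phosphatase and inhibitor partners, 2 rose (28.6% passed, close to the 27.9% of all genes tested). Ppp3ca, the gene of a calcineurin catalytic subunit, which dephosphorylates CRTC coactivators, rose 1.87-fold (adjusted p = 1.22e-05). Ppp1r1b rose by 0.30 (adjusted p = 0.0442), a call lost in 9 of the 13 alternatives, among them without each DMSO replicate (0.113, 0.0949 and 0.105) and without FR replicate 2 (0.121) or 3 (0.0596).

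**Figure D5:**
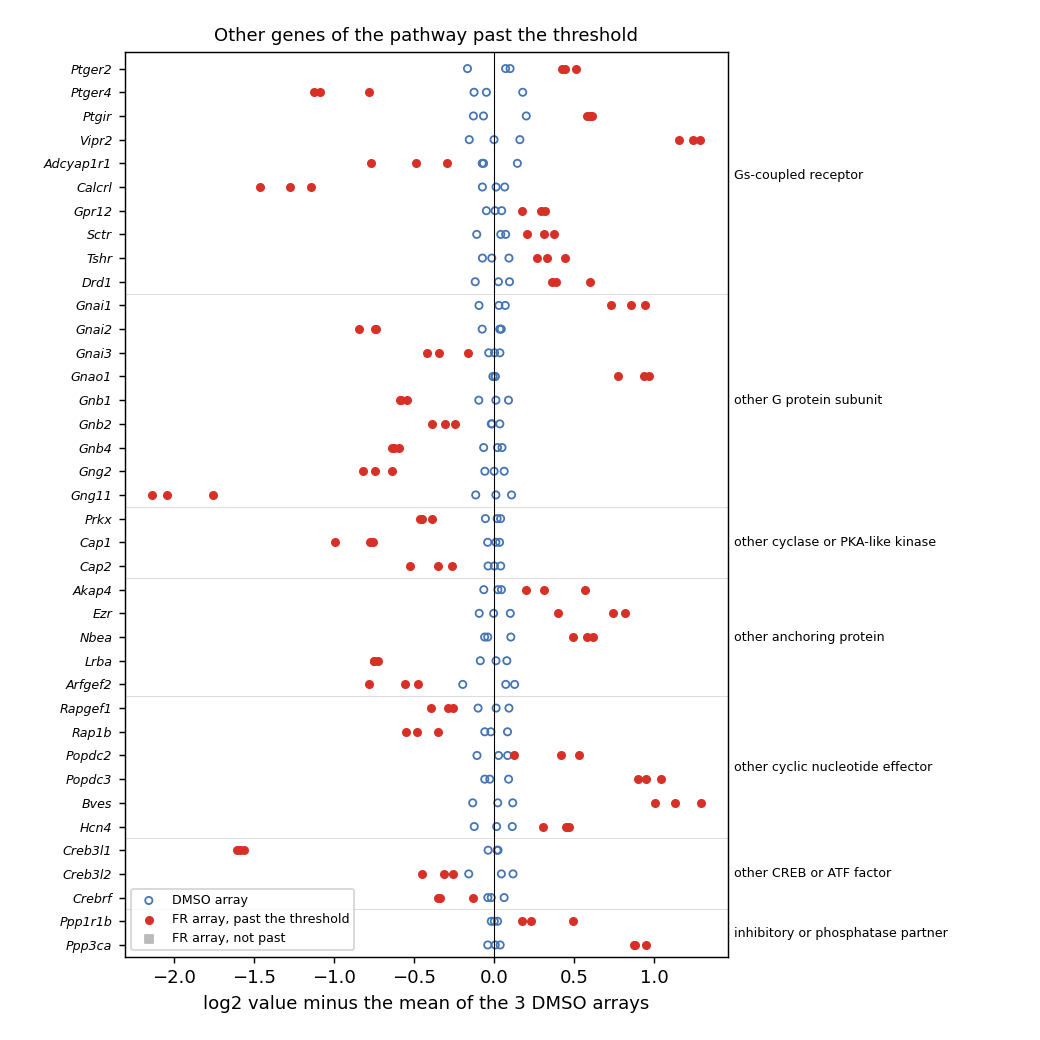
Each row is 1 of the 38 other pathway genes that passed, grouped by list, and each point is 1 array as its log2 value minus the mean of the 3 DMSO arrays (open blue for DMSO, red for FR). Gng11 and Creb3l1 lie farthest to the left, and Vipr2 and Bves farthest to the right.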

How the data were processed

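The authors deposited log2 values of 35556 probe sets for 6 arrays, made by RMA in oligo per the submitters' processing notes (versions not stated). RMA usually comprises background correction, quantile normalization and a summary of each probe set's probes. The log2 scale was checked from the range of the values, and no pair of arrays held identical values. Scan batches were not analysed here, and a different background correction needs scanner files. The number of arrays limits the precision (median SE of a log2 change 0.0962).

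Of the probe sets, 21789 had 1 gene symbol, 1621 several and 12146 none listed. FR was compared with DMSO with R 4.3.3 and limma 3.58.1 (two-sided moderated test from lmFit and eBayes, with the group as sole term), with Benjamini-Hochberg adjustment over 19938 genes and no filter. The script was tested on simulated data. The genes, lists, naming rule and background level were chosen with earlier results of these data known. All measured genes of the machinery are accounted for, and up to 3 genes of each further list that passed with the largest change are named. Probe sets differ in brightness, so levels of different genes are not compared. Alternatives were quantile normalization, median centring, leaving out dim genes, the mean of probe sets, trend and robust moderation, the replicate number as a block, leaving out each array and, added after seeing the data, cyclic loess.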

Additional observations from a re-analysis of the deposited data

How the results depend on the processing

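Under 13 alternatives, 0 of the 43 genes changed direction with a call in either fit. Of the 22 that passed, 12 passed in the same direction in every alternative that held them: Adcy2, Adcy5, Adcy7, Rgs2, Prkacb, Pkig, Akap11, Akap12, Akap13, Rapgef3, Crem and Sik2. The other 10 lost the call in at least 1, as given beside each. Of the 21 that did not pass, 4 did under an alternative: Sik1 in 5 (lowest adjusted p 0.0272), Ep300 in 4 (0.0176), Creb1 in 2 (0.0447) and Prkar2a in 1 (0.0375). The cause was not tested. The count of higher genes ranged from 5 (without DMSO replicate 1) to 10 when an array was left out, and from 8 to 10 otherwise. The count of lower genes ranged from 8 to 13 when an array was left out and from 9 to 14 otherwise. Cyclic loess, chosen after seeing the data, gave 10 higher and 9 lower. The other pathway genes gave 12 to 20 higher and 15 to 21 lower. Leaving out dim genes removed Adcy1, Adcy8, Pkib and Akap6 from the test. Same-numbered arrays of the groups had deviations that correlated at -0.073, 0.047 and -0.034, and differently numbered arrays at -0.082 to 0.122. With 3 arrays per group, these values cannot tell whether the numbers pair the samples. With the replicate block 9 genes were higher, 11 lower, and 4977 of all genes passed in place of 5559.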
